A study of Mus musculus with 6 samples.

Results

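The genes described here code for receptors of interleukins, interferons and other cytokines and for the tumour necrosis factor (TNF) receptor family, with a few ligands of the TNF family. They are the rows of the deposited table whose gene symbol begins with Il, a number and r, with Ifnar, Ifngr, Csf and a number and r, Ccr, Cxcr, Ackr, Tnfrsf or Tnfsf, or is Il6st, Osmr or Lifr. The symbol alone decided which rows matched, and 46 of the 11417 listed genes did. The symbol rule itself was set with earlier results of these data known. By family they were 6 genes of the interleukin-1 (IL-1) family, 5 of the IL-17 receptor family, 5 of the gp130 family, 7 other class I cytokine receptors, 7 interferon and IL-10 class II receptors, 4 TNF receptors with a death domain, 9 without one, 2 TNF ligands and the chemokine receptor Ackr3. Il1rn matched by its symbol but codes for a secreted antagonist of the IL-1 receptor, not a receptor. No Csf, Ccr or Cxcr receptor gene was among the rows that matched.

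Poly(A) RNA was sequenced from BC44, HC11 and C57MG, 3 established mouse lines that the labels call mammary epithelial, with 2 libraries of each. All cells were untreated and grown on plastic, and were harvested 2 days after plating. The medium of BC44 was RPMI, to which 10% serum and insulin at 5 µg/ml were added. HC11 had the same plus EGF (epidermal growth factor) at 10 ng/ml. C57MG cells were in DMEM, also with 10% serum, and with insulin at 10 µg/ml. Line and medium cannot be told apart, and nothing states that the replicate libraries came from separate cultures, so p-values measure only the spread between these libraries. Since whole cultures were sequenced, fewer cells with a transcript and less of it per cell cannot be told apart.

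Cytokine receptors of class I and class II have no enzyme of their own and signal through bound JAK kinases and STAT factors, usually as pairs of a ligand-specific chain and a shared chain. Receptors of the IL-1 and IL-17 families and most of the TNF family instead recruit adaptor proteins that lead to NF-kB and stress kinases, and those with a death domain can also start cell death. In the mammary gland, prolactin signals through a class I receptor to STAT5 during lactation, the gp130 ligand LIF acts at involution, and the TNF family member RANK drives growth of the ducts and alveoli.

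The label held unevenly against cell type markers. The 6 epithelial markers summed to 4776 to 4983 RPKM in BC44, 2122 to 2992 in HC11 and 65.4 to 136 in C57MG, where Cdh1 was at 1.09 and 0 RPKM (RPKM is reads per kilobase of gene per 1000000 reads). Krt5 and Krt14 made up most of these sums. Krt8 was at 0.038 and 0.064 RPKM in BC44, 144 and 148 in HC11, with 0.307 and 0.503 in C57MG, and BC44 had Krt18 listed at 0, against 88.5 and 94.1 RPKM for HC11. The 5 mesenchymal markers listed summed to 19.2 to 58.4, 23.4 to 27.0 and 2590.0 to 3022. Of 10 leukocyte markers 1 was listed (Cd68, 1.36 to 3.30 RPKM), and the 2 endothelial markers listed summed to at most 2.38 RPKM. Depth estimated from the low values was 14260000 to 18400000 reads a library. Some libraries also carried low levels of genes that only another line expressed, and whether these are cells or RNA of that line was not tested. Genes private to C57MG (at least 20 RPKM there) stood at a median of 0.666% and 2.02% of their C57MG level in BC44 replicates 1 and 2, and genes private to BC44 at 0.729% and 0% of their BC44 level in C57MG replicates 1 and 2. Genes private to BC44 stood at 2.38% and 1.21% in HC11 replicates 1 and 2, and those private to C57MG at 0.251% and 0.350% there. Where a receptor's level in a line was near such a share, the share is given beside it, and its part in the result was not tested.

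Between 30 and 32 of the 46 genes reached 1 RPKM in each library, where 9706 to 9895 of the 11417 listed genes did. Of the 46 genes, 21 reached it in both libraries of every line. A further 5 did so in C57MG only, 3 in HC11 only and 2 in BC44 only, 4 in BC44 and HC11, 3 in HC11 and C57MG, 1 in BC44 and C57MG, and 7 in no line. By line, 6 of the 46 genes reached 10 RPKM in each BC44 library, 14 and 17 in the HC11 libraries and 19 in each C57MG library. The share of all listed genes at 10 RPKM was not computed, so these counts are a description. Tnfrsf12a, the receptor of the TNF-like cytokine TWEAK, was the most abundant in every library and alone held 45.1% and 47.9% of the summed RPKM of the 46 genes in BC44, 41.7% and 40.1% in HC11, against 25.1% and 22.2% in C57MG.

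**Figure D1:**
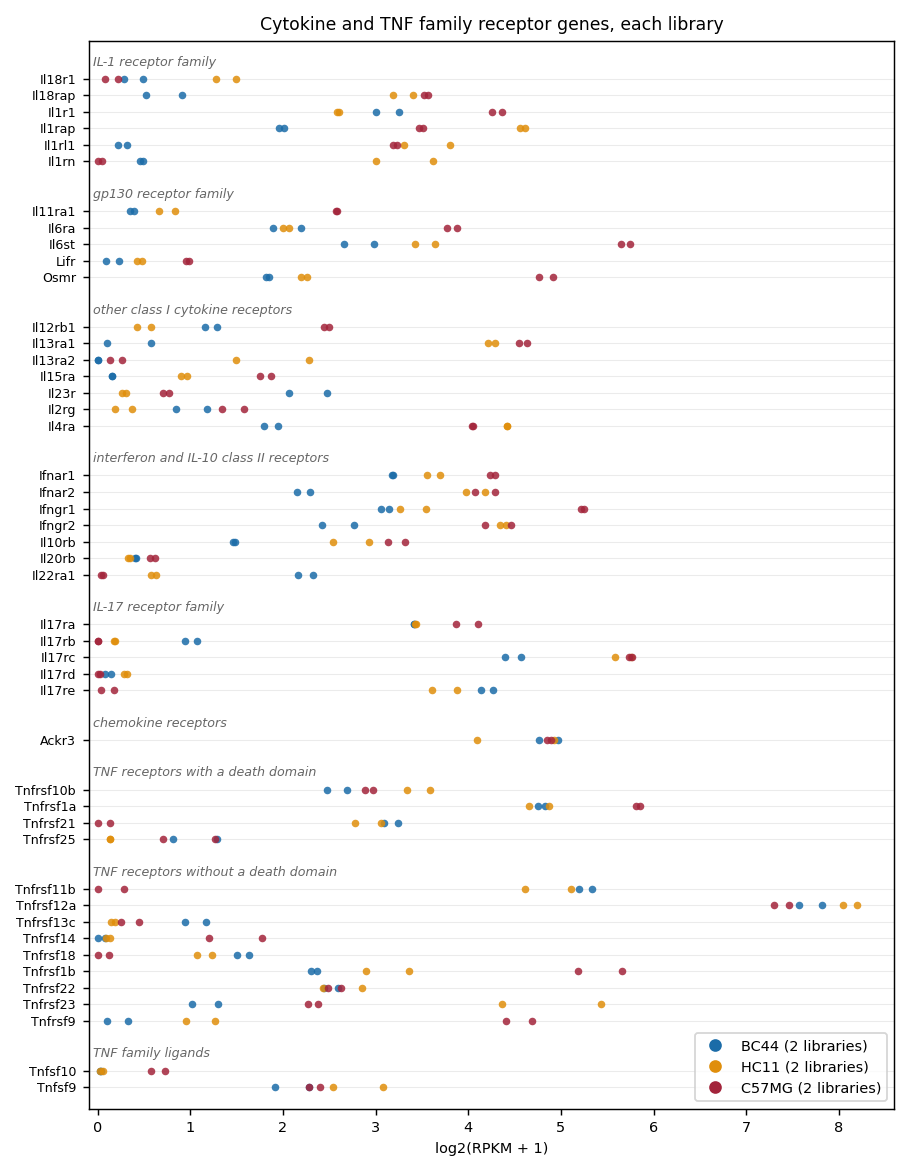
Level of each of the 46 genes on a log2(RPKM + 1) axis, grouped by family, with 1 point per library coloured by line. In each gp130 family row the C57MG points lie to the right of the other lines, Il17re, Tnfrsf11b and Tnfrsf21 are near 0 in C57MG only, and Il13ra1 is near 0 in BC44 only.

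The most frequent order among these genes put BC44 lowest. Both BC44 libraries were below the other 4 for 24 of the 46 genes (52.2%), against 19.7% of all listed genes. Both C57MG libraries were above the other 4 for 21 genes (45.7%), against 32.3% of all listed genes. The other orders were nearer to their backgrounds or under them: HC11 was highest for 11 genes (23.9%, background 19.1%), BC44 highest for 8 (17.4%, background 23.8%), HC11 lowest for 7 (15.2%, background 18.6%) and C57MG lowest for 10 (21.7%, background 36.3%). By family, BC44 was lowest for 4 of 5 gp130 family genes, 5 of 7 class II receptors, 4 of 7 other class I receptors and 3 of 6 IL-1 family genes. Of the 8 genes highest in BC44, 4 were TNF receptors (Tnfrsf11b, Tnfrsf13c, Tnfrsf18 and Tnfrsf21) and the others were Il17rb, Il17re, Il22ra1 and Il23r.

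**Figure D2:**
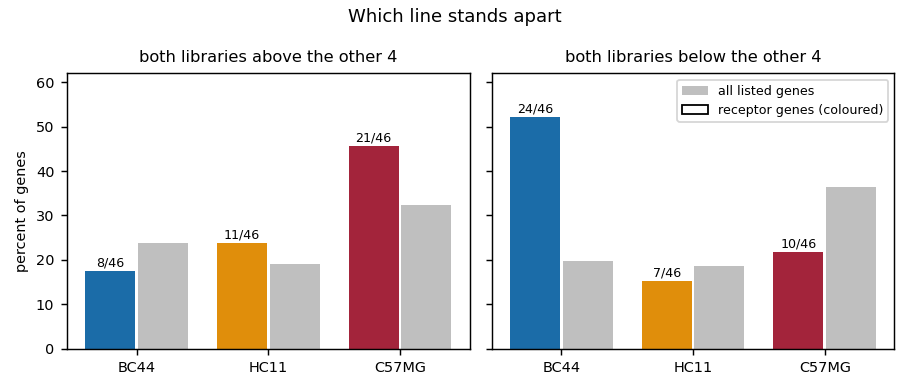
Percent of genes for which both libraries of a line were above (left) or below (right) the other 4, for the 46 receptor family genes (coloured, with counts) and for all 11417 listed genes (grey). The coloured bar exceeds the grey one most for BC44 lowest, 52.2% against 19.7%.

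Differences were tested with limma on log2(RPKM + 1) for genes at 1 RPKM or more in at least 2 libraries, with a Benjamini-Hochberg adjusted p under 0.05 as the threshold. Of the 46 genes 40 were tested, and Il17rb, Il17rd, Il20rb, Lifr, Tnfrsf13c and Tnfsf10 were too low. Between BC44 and HC11, 31 of the 40 passed, against 47.7% of all genes tested. Of these 23 were higher in HC11 (background 23.0%) and 8 in BC44 (background 24.7%). Between BC44 and C57MG, 33 passed (background 71.7%), 26 of them higher in C57MG (background 34.1%) and 7 in BC44 (background 37.5%). Between HC11 and C57MG, 31 passed (background 70.5%), 18 higher in C57MG (background 33.2%) and 13 in HC11 (background 37.4%). The median log2 fold change of the tested members was -0.44 in the first comparison, -1.17 in the second and -0.29 in the third, where the medians of all genes tested were 0.02, 0.04 and 0.03. Genes that passed the filter through 1 line alone had to differ, so these counts and medians are a description. Those genes were Il13ra2, Il18r1 and Il1rn (HC11), Il22ra1 and Il23r (BC44), and Il11ra1, Il15ra, Il2rg, Tnfrsf9 and Tnfrsf14 (C57MG). Their p-values against the line named, given below, are likewise a description. The 3 comparisons share libraries, so they are not independent of each other.

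**Figure D3:**
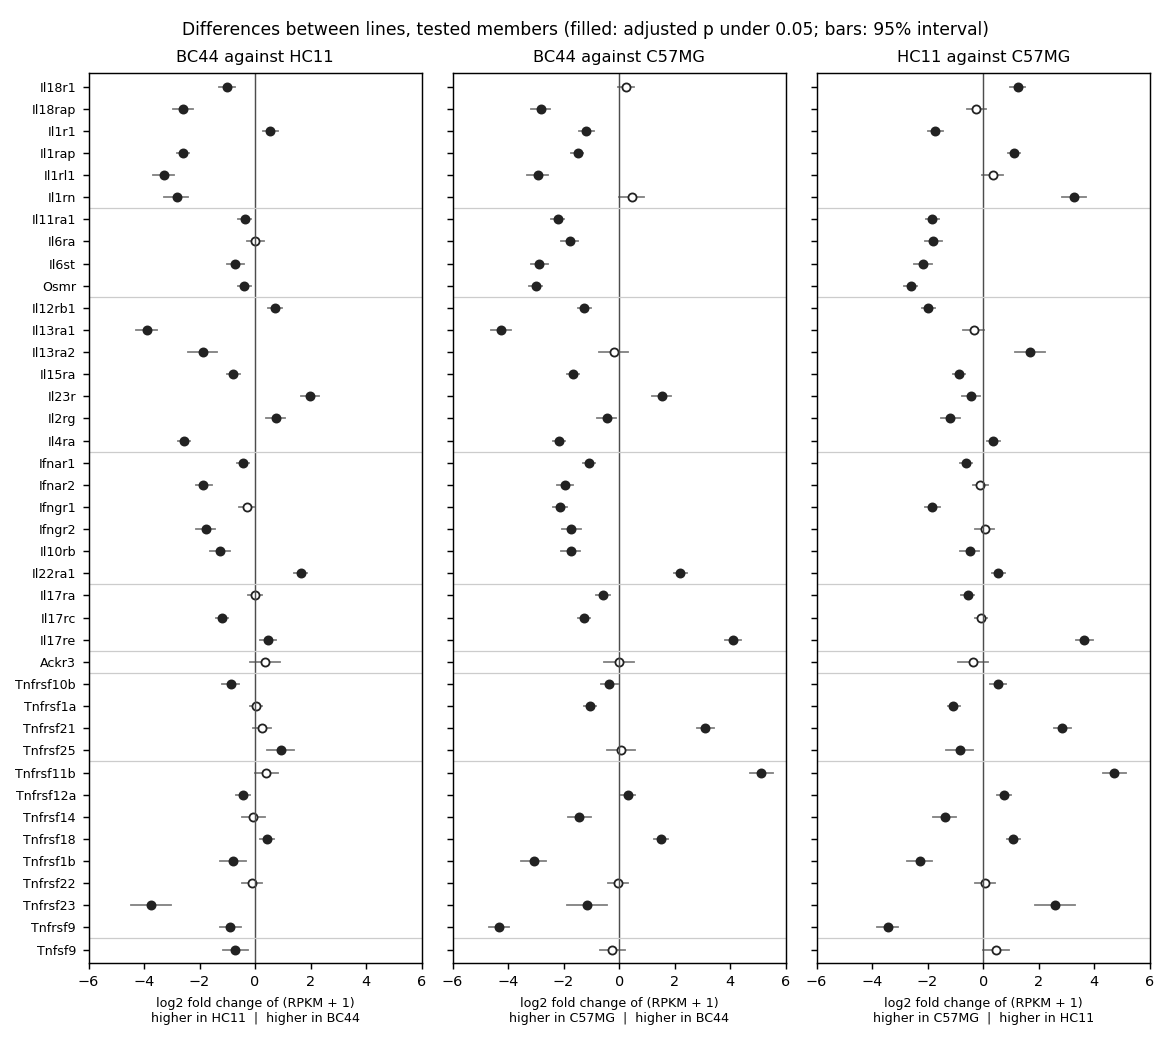
Log2 fold change of (RPKM + 1) for the 40 tested genes in the 3 comparisons, with 95% intervals from limma, where filled points have an adjusted p under 0.05 and lines separate the families. In the middle panel 26 filled points lie on the C57MG side and 7 on the BC44 side.

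In the gp130 family, whose members pair with the shared chain gp130, C57MG carried the most RNA of every gene. Il6st, which codes for gp130 itself, read 5.32 and 6.90 RPKM in BC44, 9.75 and 11.5 in HC11, compared with 52.8 and 49.3 in C57MG. The lines did not overlap, and C57MG was 8.35-fold above BC44 and 4.81-fold above HC11 (log2 fold changes of BC44 and of HC11 against C57MG of -2.88 ± 0.13 SE, adjusted p = 1.05e-06, and -2.17 ± 0.13, adjusted p = 5.18e-06). Osmr, the specific chain for oncostatin M, was at 2.61 and 2.51 RPKM in BC44, 3.57 and 3.80 in HC11, with 26.2 and 29.1 in C57MG, again with no overlap. C57MG exceeded BC44 10.8-fold and HC11 7.50-fold (adjusted p = 3.22e-07 and 6.41e-07).

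Il6ra, the IL-6 binding chain, stood at 2.72 and 3.58 RPKM in BC44 and at 3.01 and 3.19 in HC11, which overlapped, and at 12.7 and 13.7 in C57MG, 4.18-fold above BC44 (adjusted p = 1.02e-05). Il11ra1, the IL-11 binding chain, was below 1 RPKM in all 4 BC44 and HC11 libraries (0.275, 0.308, 0.783 and 0.578) and at 5.00 and 4.96 in C57MG. Its near-identical copies in the mouse genome make its assignment uncertain. Lifr, the receptor chain for LIF, was not tested. It read 0.172 and 0.067 RPKM in BC44, 0.391 and 0.345 in HC11, against 0.937 and 0.986 in C57MG. All 4 tested members were thus higher in C57MG than in either other line. The step from BC44 to HC11 was smaller: Il6st differed (-0.71 ± 0.13, adjusted p = 0.00365), and so did Osmr (adjusted p = 0.0156) and Il11ra1 (adjusted p = 0.0193), while Il6ra did not pass (adjusted p = 0.959). Without BC44 replicate 1 the adjusted p of that difference was 0.0547 for Osmr and 0.0812 for Il11ra1, without BC44 replicate 2 it was 0.0716 and 0.0609, without HC11 replicate 2 it was 0.0568 for Osmr, and with quantile normalization 0.149 for Il11ra1.

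Proportions within the family moved less than the levels. Osmr stood at 0.491 and 0.363 of Il6st in BC44, 0.367 and 0.331 in HC11, compared with 0.496 and 0.591 in C57MG, on the RPKM scale, which is per gene length. Il6ra was 0.511 and 0.519 of Il6st in BC44, 0.309 and 0.278 in HC11, with 0.240 and 0.278 in C57MG, so the IL-6 binding chain made up a smaller part in C57MG than in BC44. Osmr and Lifr are neighbours on chromosome 15, whose genes had a median log2 fold change 0.65 below that of all genes in BC44 against C57MG and 0.62 below in HC11 against C57MG. The 8 nearest tested coding genes ranged from -4.74 to -0.08 in BC44 against C57MG, with a median of -0.79, where Osmr was at -3.01.

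The sequence around the Osmr start is shown because this gene had one of the clearest splits between C57MG and the other lines. RefSeq promoter windows (build GRCm38.p6, 250 bases before to 50 after the start, read 5′ to 3′ on the gene's strand) were found for 39 of the 46 genes. They were searched on both strands for TGANTCA (AP-1), AACNNGTT (GRHL, the factors named in the series title), TTCNNNGAA (STAT, the GAS element), then for GGG and TTCC with any 3 bases between them (NF-kB), and for GAAA followed after any 2 bases by GAAA (ISRE). Capitals below mark matches, and a match is a string of letters, not a shown binding site. The Osmr window is chr15:6874264-6874563 on the minus strand and holds 1 AP-1 match, at position 3 after the start and not before it.
Osmr: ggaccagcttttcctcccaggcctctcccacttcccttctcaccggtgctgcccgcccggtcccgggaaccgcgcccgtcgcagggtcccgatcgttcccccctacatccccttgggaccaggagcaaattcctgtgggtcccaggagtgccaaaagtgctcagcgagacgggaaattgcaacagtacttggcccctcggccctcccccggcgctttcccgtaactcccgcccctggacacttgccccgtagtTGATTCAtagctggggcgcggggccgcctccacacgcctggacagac

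AP-1 letters were found in 5 of the 39 windows (12.8%, against 5.12% of the 9074 listed genes with a window and 7.93% of all 27025 windows), GRHL letters in 1 (2.56%, against 3.37% and 4.19%), GAS letters in 5 (12.8%, against 6.88% and 8.47%), NF-kB letters in 7 (17.9%, against 6.31% and 5.52%) and ISRE letters in 3 (7.69%, against 2.90% and 3.49%). Among the 18 genes highest in C57MG with a window, 1 held AP-1 letters (Osmr), 3 GAS, 2 ISRE and none NF-kB or GRHL letters.

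Of the ligands of this family, Il6 was at 0 and 0.105 RPKM in BC44, 58.2 and 90.3 in HC11, against 1.17 and 0.895 in C57MG. Lif, the LIF gene, read 2.89 and 4.47 in BC44, 55.0 and 99.2 in HC11, compared with 0.903 and 0.656 in C57MG. Both were higher in HC11 than in C57MG (log2 fold changes 5.18 ± 0.20, adjusted p = 6.19e-07, and 5.40 ± 0.28, adjusted p = 2.17e-06), whereas Il6st, Il6ra and Osmr were higher in C57MG. Clcf1, which codes for a cardiotrophin-like ligand, was at 3.10 and 2.58 RPKM in BC44, 6.63 and 12.6 in HC11, with 14.1 and 13.2 in C57MG, lower in BC44 than in both other lines (adjusted p = 0.00260 and 2.30e-04). Il11 was at no more than 2.52 in any library. Ctf1, cardiotrophin 1, was at 6.97 and 5.92 RPKM in BC44, 5.72 and 3.94 in HC11, with 3.50 and 3.62 in C57MG, and was higher in BC44 than in C57MG (adjusted p = 0.00504).

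In the IL-1 family, Il1rl1, Il18rap and Il1rap were lower in BC44 than in both other lines, Il1rap, Il18r1 and Il1rn were higher in HC11 than in both others, and Il1r1 was highest in C57MG. Il1rl1, the receptor of IL-33, was at 0.159 and 0.241 RPKM in BC44, 8.92 and 12.9 in HC11, against 8.07 and 8.38 in C57MG, 54.6-fold above BC44 in HC11 and 41.1-fold in C57MG (adjusted p = 6.30e-06 and 2.71e-06). The BC44 values are 1.93% and 2.93% of the C57MG mean, beside 0.666% and 2.02% for genes private to C57MG. The HC11 and C57MG values, which did not overlap, did not pass against each other (adjusted p = 0.0894), although without HC11 replicate 1 the adjusted p was 0.00503 and with the replicate block 0.0480. Il18rap, the accessory chain of the IL-18 receptor, read 0.436 and 0.874 RPKM in BC44, 8.10 and 9.61 in HC11, compared with 10.8 and 10.5 in C57MG. The BC44 values were 4.09% and 8.20% of the C57MG mean, above the share of genes private to C57MG. Its ligand-binding partner Il18r1 did not go with it: 0.216 and 0.398, 1.81 and 1.43, and 0.058 and 0.164 RPKM in the same order of lines. It was higher in HC11 than in BC44 and C57MG (adjusted p = 4.73e-04 and 6.51e-05), and BC44 passed against C57MG only with an offset of 0.1 in place of 1 (adjusted p = 0.0446, against 0.120). In C57MG the accessory chain was therefore 187 and 64.0 times its partner in RPKM, against 2.02 and 2.20 times in BC44 and 4.47 and 6.75 in HC11. Il18r1 was under 1 RPKM in BC44 and C57MG, so the ratios of these lines rest on low values. The 2 C57MG ratios lie far apart.

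Il1rap, the accessory chain that IL-1 and IL-33 receptors share, read 2.88 and 3.03 RPKM in BC44, 23.5 and 22.5 in HC11, with 10.4 and 10.1 in C57MG. It was 7.78-fold higher in HC11 than in BC44 (log2 fold change of BC44 against HC11 -2.60 ± 0.09, adjusted p = 1.73e-06) and 2.25-fold higher than in C57MG (adjusted p = 2.68e-05). Il1r1, the signalling IL-1 receptor, had the other order: 6.99 and 8.56 RPKM in BC44, 5.07 and 4.98 in HC11, against 19.6 and 18.1 in C57MG, and all 3 pairs of lines differed (adjusted p = 0.00699 between BC44 and HC11, and 5.48e-05 and 8.32e-06 between C57MG and these). The ratio of accessory to signalling chain was 0.411 and 0.354 in BC44, 4.63 and 4.51 in HC11, compared with 0.530 and 0.557 in C57MG, so HC11 alone had more RNA of the accessory chain, on a per-length scale.

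Il1rn, the IL-1 receptor antagonist, read 0.405 and 0.375 RPKM in BC44, 7.001 and 11.3 in HC11, with 0.035 and 0 in C57MG. HC11 was above both other lines (log2 fold change of BC44 against HC11 -2.83 ± 0.19, of HC11 against C57MG 3.28 ± 0.19, adjusted p = 2.47e-05 and 3.65e-06). BC44 and C57MG did not overlap but did not pass (adjusted p = 0.0615). They did pass without HC11 replicate 1 or 2 (0.00219 and 0.00188), in a fit of their 4 libraries alone (8.84e-04), with an offset of 0.1 (6.42e-04) and with the replicate block (0.0452). The ligand Il1a was at 386 and 1058 RPKM in HC11 and at most 0.290 in any other library, so HC11 carried the antagonist and the ligand. Against Il1r1 the antagonist stood at a ratio of 1.38 and 2.26 in HC11 and 0.0579 and 0.0438 in BC44. The HC11 libraries themselves lay far apart for Il1a. Il18 was at 6.42 and 4.17 RPKM in BC44, 0.754 and 1.17 in HC11, against 7.13 and 10.1 in C57MG.

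The window before one Il1rn start, chr2:24336610-24336909 on the plus strand (the table holds 3 windows for this gene and the first was used), is the only one of the 39 with GRHL letters, and it also holds AP-1 and NF-kB matches. It is shown because Il1rn was higher in HC11 than in the other lines.
Il1rn: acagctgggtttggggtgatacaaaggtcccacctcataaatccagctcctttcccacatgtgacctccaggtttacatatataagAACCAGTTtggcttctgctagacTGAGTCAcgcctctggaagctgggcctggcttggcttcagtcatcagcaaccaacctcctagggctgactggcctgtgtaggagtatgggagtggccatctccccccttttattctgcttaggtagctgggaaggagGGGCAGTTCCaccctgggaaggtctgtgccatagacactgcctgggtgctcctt

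The other class I receptors were led by a split at the IL-4 and IL-13 receptors. Il13ra1, the IL-13 binding chain, read 0.074 and 0.494 RPKM in BC44, 18.5 and 17.6 in HC11, compared with 23.9 and 22.3 in C57MG, 63.6-fold and 81.3-fold above BC44 (adjusted p = 2.95e-06 and 4.22e-07). The BC44 values are 0.320% and 2.14% of the C57MG mean, where genes private to C57MG stood at 0.666% and 2.02%, so the receptor's share in BC44 was close to that of the private genes or below it. After the other line's estimated share was subtracted the difference from C57MG was a log2 fold change of -4.59. HC11 and C57MG did not overlap but did not pass (adjusted p = 0.0893), and passed without BC44 replicate 1 or 2 (0.0208 and 0.0218) and after that subtraction (0.0136). Il4ra, which pairs with it, read 2.46 and 2.86 RPKM in BC44, 20.4 in both HC11 libraries and 15.4 and 15.6 in C57MG (BC44 against HC11 -2.55 ± 0.10, adjusted p = 2.26e-06). HC11 was 1.32-fold above C57MG (adjusted p = 0.00964), but without C57MG replicate 1 or 2 the adjusted p was 0.0677 or 0.0601. The ratio of Il13ra1 to Il4ra was 0.0301 and 0.173 in BC44, 0.906 and 0.863 in HC11, with 1.55 and 1.43 in C57MG.

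Il13ra2, a decoy that binds IL-13 without signalling, was listed at 0 in both BC44 libraries, at 1.82 and 3.85 RPKM in HC11, against 0.097 and 0.199 in C57MG. HC11 was above C57MG 19.2-fold (adjusted p = 3.48e-04) and above BC44 (adjusted p = 4.54e-04). Il13ra2 passed the filter through HC11 alone, so these p-values are a description. BC44 and C57MG did not pass with all libraries (adjusted p = 0.457), and passed without HC11 replicate 2 (0.0476), in a fit of their 4 libraries alone (0.0351) and with an offset of 0.1 (0.0237). The ligand Il13 was at 1.52 and 1.39 RPKM in HC11 and at 0 in the other 4 libraries. Il2rg, the common gamma chain, was at 0.802 and 1.27 RPKM in BC44, 0.135 and 0.292 in HC11, compared with 1.53 and 1.98 in C57MG, and all 3 pairs of lines differed. C57MG exceeded BC44 with an adjusted p of 0.0284, but this was 0.163 without BC44 replicate 1, 0.149 without C57MG replicate 2 and 0.0896 with an offset of 0.1. A predicted coding gene overlaps 30.5% of its exon length.

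Il15ra, which binds IL-15, read 0.116 and 0.111 RPKM in BC44, 0.863 and 0.949 in HC11, with 2.37 and 2.65 in C57MG, and all 3 differences passed. Its ligand Il15 was highest in BC44 and lowest in HC11, with 6.17 and 4.24 RPKM in BC44, 0.903 and 0.439 in HC11, against 1.91 and 3.09 in C57MG. Il12rb1, a chain of the IL-12 and IL-23 receptors, was at 1.24 and 1.44 in BC44, 0.487 and 0.340 in HC11, compared with 4.66 and 4.45 in C57MG, and Il23r, the IL-23 specific chain, was at 3.19 and 4.54, 0.238 and 0.196, and 0.623 and 0.704. Both were lowest in HC11, while Il12rb1 was highest in C57MG and Il23r in BC44, 17.8-fold above HC11 (adjusted p = 3.44e-05). Il23r differed between HC11 and C57MG with an adjusted p of 0.0221 over all libraries, and of 0.0597 to 0.0964 when any 1 of those 4 libraries was left out.

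Among the interferon receptor chains, Ifnar1, Ifnar2 and Ifngr2 were higher in HC11 and C57MG than in BC44, and Ifngr1 was higher in C57MG than in both other lines. Ifngr2, the signalling chain for interferon gamma, read 4.34 and 5.80 RPKM in BC44, 19.2 and 20.2 in HC11, with 17.1 and 20.9 in C57MG. Ifnar2, the binding chain for interferon alpha and beta, read 3.45 and 3.89, 14.7 and 17.2, and 15.8 and 18.5. Both were higher in HC11 and in C57MG than in BC44 (BC44 against HC11 -1.78 ± 0.14 and -1.86 ± 0.12, adjusted p = 6.65e-05 and 2.42e-05), and HC11 and C57MG overlapped for each.

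Ifngr1, the ligand-binding chain, did not follow Ifngr2: BC44 at 7.30 and 7.87 and HC11 at 10.7 and 8.58 RPKM did not pass against each other (adjusted p = 0.0630), though without HC11 replicate 2 the adjusted p was 0.0172 and after subtraction of the other line's share 0.0333. C57MG, at 36.3 and 37.0, was 4.83-fold above BC44 and 3.80-fold above HC11 (adjusted p = 2.30e-06 and 5.78e-06). As a result the ratio of Ifngr1 to Ifngr2 was 1.68 and 1.36 in BC44, 0.555 and 0.425 in HC11, against 2.12 and 1.77 in C57MG. Ifnar1, the second type I chain, was at 8.09 and 8.06 RPKM in BC44, 12.0 and 10.8 in HC11, compared with 17.8 and 18.5 in C57MG, and its ratio to Ifnar2 was 2.34 and 2.07, 0.814 and 0.627, and 1.13 and 0.999.

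Il10rb, shared by the IL-10, IL-22 and lambda interferon receptors, read 1.80 and 1.75 RPKM in BC44, 4.81 and 6.60 in HC11, with 7.75 and 8.99 in C57MG. Its HC11 to C57MG difference (adjusted p = 0.0190) had an adjusted p of 0.126 without C57MG replicate 2 and 0.0824 without HC11 replicate 1. Il22ra1, a chain of the IL-22 receptor, had the opposite order. It read 3.49 and 3.99 in BC44, 0.545 and 0.489 in HC11, against 0.043 and 0.025 in C57MG. It was 7.24-fold higher in BC44 than in HC11 (adjusted p = 1.59e-05). Its C57MG values are 1.15% and 0.668% of the BC44 mean, beside 0.729% and 0% for genes private to BC44. HC11 against C57MG (adjusted p = 0.00159) had an adjusted p of 0.293 with quantile normalization. Il20rb was not tested, with 0.249 to 0.540 RPKM in all 6 libraries. Il24, a ligand of IL-20 type receptors, was at 121 and 225 RPKM in HC11 and at most 0.544 elsewhere.

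Ifnar2, Il10rb, Ifnar1 and Ifngr2 lie together on chromosome 16 and were all lower in BC44 than in HC11, with log2 fold changes from -1.86 to -0.45. The 8 nearest tested coding genes around them had a median of -0.17 in that comparison, from -1.48 to 0.11, and Tmem50b, next to Ifngr2, was the lowest of these. All genes of chromosome 16 had a median 0.26 above that of all genes. The receptor cluster on chromosome 1 behaved otherwise: Il1r1 was higher in BC44 than in HC11 (0.54), and Il1rl1 and Il18rap were lower (-3.29 and -2.58), while the nearest tested genes around them ranged from -0.53 to 0.92.

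**Figure D4:**
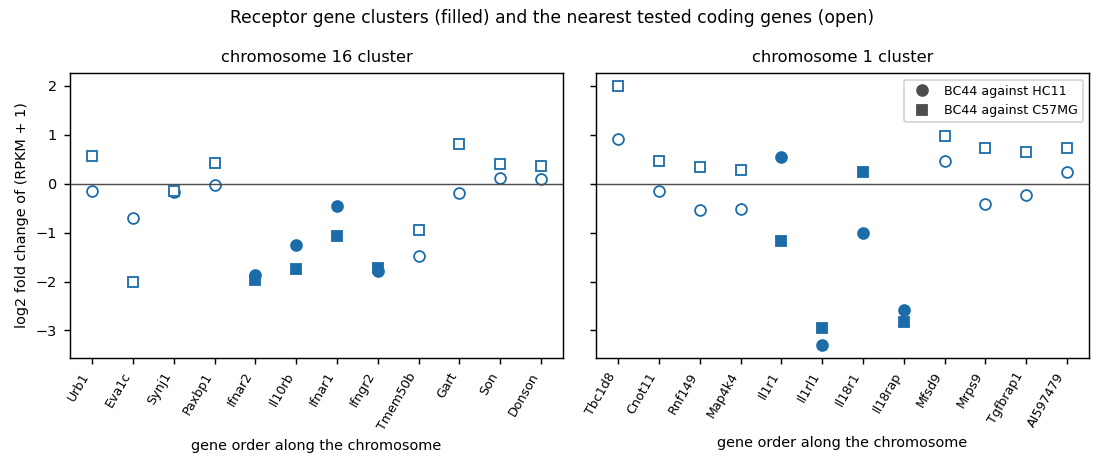
Log2 fold change of (RPKM + 1) of BC44 against HC11 (circles) and of BC44 against C57MG (squares) for the receptor clusters of chromosomes 16 and 1 and the 4 nearest tested coding genes on each side, in gene order. Filled symbols are receptors and lie below most open ones in the chromosome 16 panel. The exceptions are Tmem50b (-1.48) and Eva1c (-0.70) against HC11 and Eva1c (-2.02) against C57MG, which lie below at least 1 receptor.

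Windows of the 2 chromosome 16 genes with the largest difference between BC44 and HC11 and of Il22ra1, which had the opposite order, are shown for comparison. Ifnar2 is chr16:91372533-91372832 on the plus strand with a GAS match, Ifngr2 is chr16:91546809-91547108 on the plus strand with an NF-kB match, and Il22ra1 is chr4:135727909-135728208 on the plus strand with AP-1 and NF-kB matches.
Ifnar2: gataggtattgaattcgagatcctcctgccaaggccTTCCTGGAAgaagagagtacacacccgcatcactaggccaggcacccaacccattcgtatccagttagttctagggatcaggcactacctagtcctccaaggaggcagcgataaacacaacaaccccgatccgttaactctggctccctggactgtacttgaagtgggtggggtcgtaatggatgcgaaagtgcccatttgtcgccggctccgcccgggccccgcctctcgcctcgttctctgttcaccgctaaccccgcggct
Ifngr2: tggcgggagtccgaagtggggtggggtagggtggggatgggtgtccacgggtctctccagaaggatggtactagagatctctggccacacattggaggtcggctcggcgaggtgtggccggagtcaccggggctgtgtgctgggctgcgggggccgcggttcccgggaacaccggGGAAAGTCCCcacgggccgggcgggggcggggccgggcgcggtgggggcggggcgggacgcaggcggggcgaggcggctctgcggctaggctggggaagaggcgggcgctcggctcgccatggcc
Il22ra1: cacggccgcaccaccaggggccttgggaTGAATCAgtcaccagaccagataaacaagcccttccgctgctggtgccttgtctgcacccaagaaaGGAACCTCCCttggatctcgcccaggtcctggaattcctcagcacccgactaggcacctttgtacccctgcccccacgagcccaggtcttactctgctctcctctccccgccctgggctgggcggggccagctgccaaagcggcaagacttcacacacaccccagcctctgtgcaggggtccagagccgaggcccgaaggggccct

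**Figure D5:**
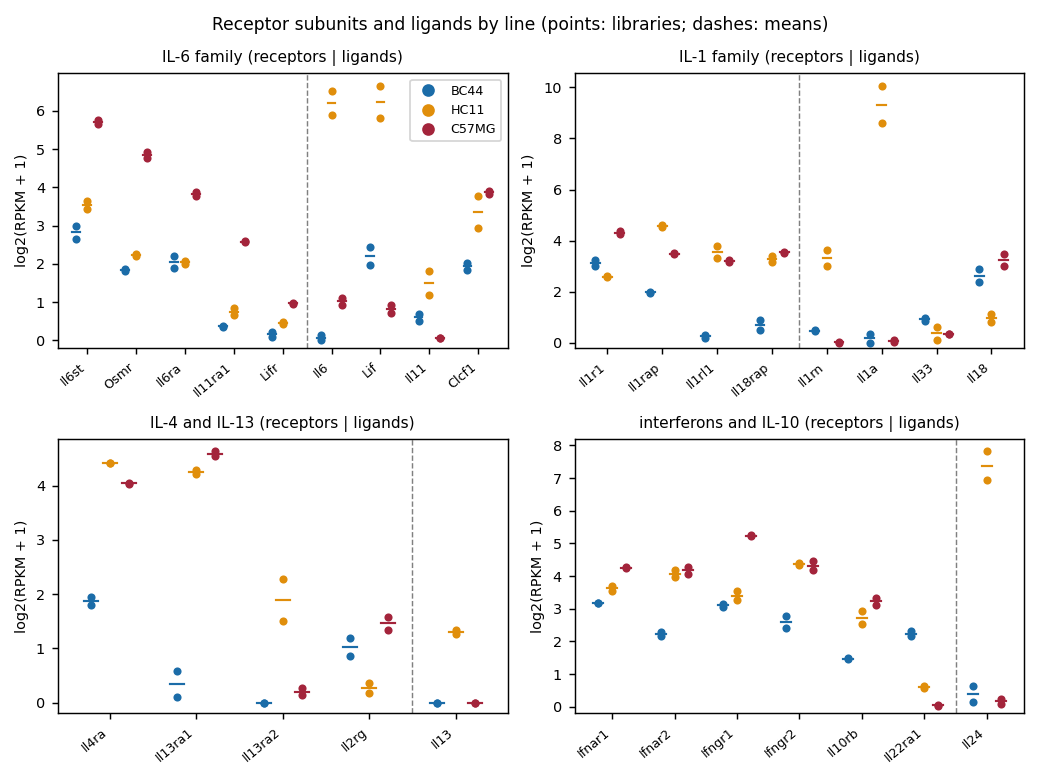
Levels, on log2(RPKM + 1), of receptor subunits (left of the dashed line) and ligands (with the antagonist Il1rn) in 4 systems, with 1 point per library and a dash at each line's mean. Il6, Lif, Il1a and Il24 are highest in HC11, whereas Il6st, Osmr and Il6ra are highest in C57MG.

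Of the IL-17 receptors, Il17ra and Il17rc were present in every line and Il17re was near 0 in C57MG. Il17ra, the shared chain, stood at 9.68 and 9.66 RPKM in BC44, 9.70 and 9.79 in HC11, compared with 16.2 and 13.6 in C57MG, and BC44 and HC11 did not differ beyond their spread (log2 fold change -0.01 ± 0.10, adjusted p = 0.948). Il17rc, its partner for IL-17A and IL-17F, was at 20.1 and 22.8, 47.1 and 53.2, and 52.4 and 53.4, lower in BC44 than in HC11 (-1.19 ± 0.10, adjusted p = 6.34e-05), with HC11 and C57MG overlapping. Il17re, the chain for IL-17C, lies beside Il17rc on chromosome 6 and read 18.3 and 16.5 RPKM in BC44, 13.7 and 11.2 in HC11, with 0.129 and 0.022 in C57MG. It was higher in BC44 and HC11 than in C57MG by log2 fold changes of 4.10 ± 0.13 and 3.64 ± 0.13 (adjusted p = 2.86e-07 and 4.25e-07). The C57MG values are 0.740% and 0.126% of the BC44 mean, beside 0.729% and 0% for genes private to BC44.

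BC44 exceeded HC11 in Il17re with an adjusted p of 0.0210. Without BC44 replicate 1, BC44 replicate 2 or HC11 replicate 2 this adjusted p was 0.120, 0.0545 and 0.0943, and with an offset of 0.1 it was 0.220. Il17rb, which binds IL-25 and was not tested, was at 1.10 and 0.924 RPKM in BC44, 0.138 and 0.128 in HC11 and 0 in both C57MG libraries. Il17rd, a related receptor and not tested, was at no more than 0.242.

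TNF receptors included the most abundant gene of the set and 3 genes that were near 0 in C57MG. Tnfrsf12a read 189 and 224 RPKM in BC44, 263 and 293 in HC11, against 175 and 156 in C57MG. HC11 was above C57MG (0.74 ± 0.11, adjusted p = 5.66e-04), BC44 below HC11 (adjusted p = 0.0146) and BC44 above C57MG (adjusted p = 0.0332). The latter 2 differences were not past the threshold when single libraries were left out: 0.0971 without BC44 replicate 1 and 0.0808 without HC11 replicate 2 for BC44 against HC11, and 0.203 without BC44 replicate 2 and 0.195 without C57MG replicate 2 for BC44 against C57MG, which was 0.0599 with quantile normalization.

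Tnfrsf11b, osteoprotegerin, a secreted decoy for RANKL, was at 39.4 and 35.5 RPKM in BC44, 23.4 and 33.6 in HC11, compared with 0.216 and 0 in C57MG. Tnfrsf21, also called DR6, a death domain receptor, was at 7.53 and 8.47, 5.84 and 7.33, and 0.092 and 0. Both differed from C57MG in BC44 and in HC11 (BC44 against C57MG 5.12 ± 0.18 and 3.10 ± 0.13, adjusted p = 3.50e-07 and 7.25e-07), and neither passed between BC44 and HC11 (0.102 and 0.157), except that without HC11 replicate 2 Tnfrsf11b had an adjusted p of 0.0237. Their C57MG replicate 1 values are 0.576% and 1.15% of the BC44 mean, where genes private to BC44 stood at 0.729%. Tnfrsf18, also called GITR, had 1.84 and 2.11 RPKM in BC44, 1.34 and 1.10 in HC11, with 0 and 0.085 in C57MG, and an antisense gene overlaps 27.2% of its exon length. It was higher in BC44 than in HC11 (adjusted p = 0.0152), with adjusted p of 0.0712 without BC44 replicate 2, 0.0512 with quantile normalization and 0.143 with an offset of 0.1.

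Other TNF receptors were highest in C57MG. Tnfrsf1b, the second TNF receptor, read 3.92 and 4.17 RPKM in BC44, 6.46 and 9.25 in HC11, against 35.3 and 49.4 in C57MG, 10.5-fold above BC44 and 5.39-fold above HC11 (adjusted p = 5.30e-06 and 2.95e-05). Tnfrsf1a, the TNF receptor with a death domain, was at 27.4 and 26.0, 28.4 and 24.3, and 56.8 and 55.2, and so C57MG was 2.10-fold above BC44, which overlapped HC11. The ratio of Tnfrsf1b to Tnfrsf1a was 0.143 and 0.160 in BC44, 0.228 and 0.381 in HC11, compared with 0.622 and 0.895 in C57MG. BC44 was below HC11 in Tnfrsf1b (adjusted p = 0.0124), with 0.0780, 0.0602 and 0.0788 without BC44 replicate 1, BC44 replicate 2 and HC11 replicate 2.

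Tnfrsf9, known as 4-1BB on activated T cells, had 0.075 and 0.253 RPKM in BC44, 0.930 and 1.41 in HC11, with 20.2 and 24.8 in C57MG, 137-fold above BC44 and 19.2-fold above HC11 (adjusted p = 4.07e-07 and 1.27e-06). The BC44 values are 0.334% and 1.13% of the C57MG mean, beside 0.666% and 2.02% for genes private to C57MG. Its ligand Tnfsf9 was at 2.78 and 3.87 RPKM in BC44, 4.82 and 7.43 in HC11, against 3.87 and 4.27 in C57MG. Gm11110, a non-coding gene on the opposite strand, overlaps 14.9% of Tnfsf9 exon length. Gm11110 was listed at 5.13 and 4.36 RPKM in BC44, 4.41 and 3.51 in HC11, with 2.46 and 2.88 in C57MG. Its part in the Tnfsf9 values was not tested. Tnfsf9 was lower in BC44 than in HC11 (adjusted p = 0.0214), with 0.142 without BC44 replicate 1 and 0.103 without HC11 replicate 2, and HC11 exceeded C57MG only without HC11 replicate 1 (adjusted p = 0.0138) and with the replicate block (0.0119). Tnfrsf14, also called HVEM, was at 1.29 and 2.41 RPKM in C57MG and under 0.1 in the other 4 libraries. Tnfsf10, TRAIL, was not tested and read at most 0.653.

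The window of Tnfrsf1b, chr4:145246821-145247120 on the minus strand, is shown for its C57MG level. It holds a GAS and an ISRE match, and GAS letters were also found for Tnfrsf1a, Ifnar1, Ifnar2 and Tnfrsf18.
Tnfrsf1b: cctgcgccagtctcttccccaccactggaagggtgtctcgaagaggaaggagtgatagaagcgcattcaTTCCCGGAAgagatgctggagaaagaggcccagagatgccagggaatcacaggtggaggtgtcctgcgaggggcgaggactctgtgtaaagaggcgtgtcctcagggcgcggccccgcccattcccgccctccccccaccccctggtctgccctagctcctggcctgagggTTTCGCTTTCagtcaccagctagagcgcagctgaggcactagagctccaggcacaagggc

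Tnfrsf23 and Tnfrsf22, decoy receptors of TRAIL that are neighbours on chromosome 7 and related copies, behaved apart. Tnfrsf23 was at 1.02 and 1.45 RPKM in BC44, 19.6 and 42.1 in HC11, compared with 3.81 and 4.18 in C57MG, 24.9-fold higher in HC11 than in BC44 (adjusted p = 6.78e-05). Tnfrsf22 was between 4.38 and 6.20 in all 6 libraries and passed in no comparison. Since the 2 genes are similar, how reads were shared between them is uncertain. C57MG exceeded BC44 in Tnfrsf23 with an adjusted p of 0.0101, and of 0.0761 without BC44 replicate 1 and 0.0515 without C57MG replicate 2. Tnfrsf10b, the TRAIL death receptor, was at 4.55 and 5.46 RPKM in BC44, 9.12 and 11.0 in HC11, with 6.40 and 6.85 in C57MG. Its difference between BC44 and C57MG (adjusted p = 0.0406) had an adjusted p of 0.212, 0.102 and 0.184 without BC44 replicate 1, C57MG replicate 1 and C57MG replicate 2, and its HC11 to C57MG difference (0.00707) one of 0.0540 without C57MG replicate 1. Tnfrsf25, a death receptor for TL1A, read 1.44 and 0.755 RPKM in BC44, 0.095 and 0.092 in HC11, against 0.632 and 1.40 in C57MG. BC44 exceeded HC11 with an adjusted p of 0.00938, and of 0.0674 without BC44 replicate 1 and 0.0528 without HC11 replicate 2. Tnfrsf13c, the receptor of BAFF, was not tested and read 0.916 and 1.25 in BC44 and at most 0.357 elsewhere.

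The one chemokine receptor of the set showed no clear order. Ackr3, which binds and removes CXCL12, was at 26.2 and 30.3 RPKM in BC44, 16.1 and 29.3 in HC11, compared with 27.8 and 28.8 in C57MG, and no comparison passed. Without HC11 replicate 2 it was higher in BC44 and in C57MG than in HC11 (log2 fold change 0.77 for BC44 against HC11 and -0.78 for HC11 against C57MG, adjusted p = 0.00478 and 0.00211). Its ligand Cxcl12 was at 92.8 and 103 RPKM in C57MG and at most 1.62 in the other libraries.

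Ligands, signal transducers and receptors with other symbols were read beside the set. Their counts are set beside the shares of all genes tested that differed, 47.7% between BC44 and HC11, 71.7% between BC44 and C57MG and 70.5% between HC11 and C57MG. Among 23 ligands tested, BC44 and HC11 differed in 16 (69.6%, 13 with more in HC11), BC44 and C57MG in 16 (69.6%, 10 with more in C57MG) and the other pair in 20 (87.0%, 13 with more in HC11). In HC11 the neutrophil attractant Cxcl1 read 442 and 964 RPKM against at most 2.11 in the other 4 libraries, and Csf3 231 and 595 against at most 0.162. Among 41 TNF and IL-1 receptor signal transducers, 22 differed between BC44 and HC11 (53.7%, 19 higher in HC11), 29 between BC44 and C57MG (70.7%) and 32 between HC11 and C57MG (78.0%), of which the first 2 are near the shares of all genes. The first of these counts was lower without BC44 replicate 1, as was the count over all genes. Traf5, a TNF receptor adaptor, was at 6.06 and 6.67 RPKM in C57MG and at most 0.219 elsewhere, and Nfkbie, an NF-kB inhibitor, at 1.44 and 1.73 in BC44, 12.0 and 12.3 in HC11, with 6.58 and 7.26 in C57MG. Ikbkg, the regulatory subunit of the IKK kinase, was at 7.98 and 7.07 in BC44, 6.22 and 5.62 in HC11, against 27.8 and 30.02 in C57MG, above both other lines. Of 22 cytokine receptor transducers, 12, 16 and 15 differed in the same order of comparisons (54.5%, 72.7% and 68.2%), near the shares of all genes. Socs3, a feedback inhibitor of gp130 signalling, read 7.64 and 6.28 RPKM in BC44, 112 and 135 in HC11, compared with 41.8 and 47.7 in C57MG, lower in BC44 than in both others (adjusted p = 1.44e-06 and 1.81e-06). Socs1, a feedback inhibitor of interferon signalling, read 0.448 and 0.611 RPKM in BC44, 6.00 and 6.92 in HC11, with 8.16 and 7.02 in C57MG, and HC11 and C57MG did not overlap but did not pass against each other (adjusted p = 0.179). Stat5a, the STAT of prolactin signalling, was at 0.825 and 0.386 in BC44, 1.82 and 1.28 in HC11, against 7.13 and 7.37 in C57MG, and was higher in C57MG than in either other line. Of 9 receptors with other symbols 5, 7 and 5 differed (55.6%, 77.8% and 55.6%). Fas, a death receptor, was at 0.152 and 0.477 RPKM in BC44, 7.15 and 11.0 in HC11, compared with 9.43 and 10.1 in C57MG. Crlf2, a chain of the TSLP receptor, read 5.63 and 3.94 RPKM in BC44, 11.9 and 13.6 in HC11, with 0.167 and 0.098 in C57MG, and all 3 pairs of lines differed. Its ligand Tslp was at 7.08 and 11.3 RPKM in HC11 and at most 0.202 elsewhere.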

How the data were processed

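Poly(A) RNA-seq libraries of 3 lines, 2 of each, were analysed from 1 deposited table. The authors computed its values as RPKM, per the deposited table's name, for 11417 genes. STAR and mm9 are named in the submitters' processing notes, with no version, and the counting, gene lengths and strand setting are not given in the sources used here. Gene identifiers were matched to GENCODE M21. Promoter windows were matched by symbol and came from RefSeq GRCm38.p6, which is not the authors' build.

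limma 3.58.1 (R 4.3.3, trend, all 6 libraries in 1 model) was run on log2(RPKM + 1) for the 10759 genes at 1 RPKM or more in at least 2 libraries, two-sided, Benjamini-Hochberg adjusted within each comparison. Fold changes on this scale understate changes of low genes, and fold ratios are of mean RPKM. An exact permutation test of 2 against 2 cannot go below 0.33 and was not used. The model was run on simulated data with independent noise in each library. That cannot show how it holds where replicates are not independent or a line carries another line's signal. Depth was estimated from steps in low values times exon length (79.6% to 82.1% within 0.15 reads of a whole number, against 30.0% by chance), for totals of at most 25000000, since multiples also match. Read counts were not analysed here.

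The genes, families and companion lists were chosen with earlier results of these data known. Every one whose mean reached 1 RPKM in some line was named, with the 3 companion genes of the largest change in each list that passed without overlap, and ligands of named receptors. One gene that this rule would name is not reported here. Alternatives were an offset of 0.1, no filter, a mean of 5 RPKM, quantile and median-ratio scaling, only the 4 libraries compared, the replicate number as a block, subtraction of the other line's estimated signal and leaving out each library.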

Additional observations from a re-analysis of the deposited data

How the results depend on the processing

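A filter of a mean of at least 5 RPKM left 25 receptor genes tested in place of 40 and moved counts by over 1.5 times. In BC44 against HC11, 19 of the 25 were called (2 higher in BC44, 17 in HC11), against 31 of the 40. In HC11 against C57MG, 18 of the 25 were called (7 higher in HC11, 11 in C57MG), also against 31 of the 40. In BC44 against C57MG 24 were called, 3 higher in BC44 and 21 in C57MG. Over all genes the calls also fell, to 3758, 5574 and 5476 from 5129, 7713 and 7590, in the order of the report. The counts of this paragraph have no share of all genes tested beside them, so they are a description. Under that filter 6, 10 and 9 of 12 cytokine transducers, 9 (BC44 against C57MG) and 13 (HC11 against C57MG) of 14 ligands and 4 and 3 of 6 receptors with other symbols were called. Leaving out single libraries gave 14 (without BC44 replicate 1) to 23 called TNF and IL-1 transducers in BC44 against HC11, against 22 with all, and 24 to 31, 29 to 35 and 28 to 32 called receptor genes in the 3 comparisons, in the order of the report.

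The reversed directions were all of differences that did not pass. With quantile normalization Il18r1 (BC44 against C57MG) was -0.04, Il17ra (BC44 against HC11) 0.00 and Tnfrsf25 (BC44 against C57MG) -0.05, and with subtraction of the other line's signal Il6ra (BC44 against HC11) was -0.02. Over the libraries left out, log2 fold changes ranged from -0.17 to 0.01 for Il17rc (HC11 against C57MG), -0.08 to 0.13 for Tnfrsf1a (BC44 against HC11), -0.21 to 0.34 for Tnfrsf25 (BC44 against C57MG), -0.14 to 0.16 for Il6ra (BC44 against HC11), -0.20 to 0.01 for Ifnar2 and -0.08 to 0.20 for Ifngr2 (both HC11 against C57MG). For Tnfrsf22 they ranged from -0.33 to 0.09, -0.12 to 0.04 and -0.13 to 0.29, in the order of the report. For Ackr3 they ranged from -0.06 to 0.77, -0.11 to 0.09 and -0.78 to 0.05, in that order. The cause was not tested.

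Deviations of same-numbered libraries correlated at 0.354 for BC44 with HC11. The correlations were near 0 for BC44 with C57MG (-0.039) and HC11 with C57MG (0.038). Whether the replicate numbers pair the libraries of BC44 and HC11 was not tested. With the replicate block 31, 34 and 33 of the 40 receptor genes were called, where 5350, 7875 and 7721 of all 10759 genes tested were. Depth is estimated, so levels near 0 in RPKM are not shown to be absent.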
